A study of Mus musculus with 6 samples.

Results

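The cytosolic chaperones and co-chaperones are described here as 84 of the 54532 genes in the deposited table of splenic CD4+ T cells. They were chosen by name among protein-coding genes: symbols that start with Hspa, Hspb, Hsph, Hsp90, Hspd, Hspe, Dnaja, Dnajb or Dnajc, the subunits of the CCT ring, and Fkbp4, Stip1, St13, Chordc1, Ahsa1, Bag3 and Hsf1, without the 4 endoplasmic reticulum chaperone genes Hspa5, Hsp90b1, Dnajb9 and Dnajc3. The names use no expression value, but the set was proposed after lower values of Fkbp4, Dnajb4 and Hsph1 had been seen in these libraries, so the comparison of the groups is given as a description and supports nothing beyond these 6 libraries. The name of the set is narrower than the genes in it. At least 9 members act in mitochondria, among them Hspa9, Hspd1 and Hspe1. At least 6 act in the endoplasmic reticulum or its membrane, among them Dnajb11 and Hspa13. The CCT subunit Cct6a is listed as a processed transcript, not as protein coding, and is therefore no member, though its values are given beside the ring.

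RNA was sequenced from CD4+ T cells of the spleens of C57BL/6 mice with experimental autoimmune encephalomyelitis (EAE, a disease in which T cells attack the brain and spinal cord), taken in the acute phase. The 3 mice labelled Ogt-KD had the genotype Ogtfl/wt CD4-Cre, so 1 Ogt allele was floxed and the other intact, and Cd4 regulatory sequence drove Cre in T lineage cells. The labels call the 3 control mice wild type and name neither Cre nor a floxed allele, so Cre and Ogt effects cannot be told apart. Age and sampling day were not used here, and nothing names the libraries of 1 group as separate cultures or litters, so the p values measure the spread between these mice or libraries only. The comparison asks which genes CD4+ T cells from mice with 1 floxed Ogt allele expressed at another level during the disease. Ogt lies on the X chromosome and encodes O-GlcNAc transferase, which adds a single sugar to many nuclear and cytosolic proteins. Its RNA stood at 599, 628 and 562 CPM (read counts scaled to library size) in the 3 controls, in order of replicate number, and at 662, 599 and 459 CPM in Ogt-KD, so the groups overlapped. These counts cover the whole gene and measure neither the deletion nor which allele a given cell expressed.

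Chaperones bind unfolded or unstable proteins and release them folded. HSP70 proteins do so in cycles of ATP hydrolysis that J proteins (the DNAJ families) start and nucleotide exchange factors end, HSP90 takes over late intermediates such as kinases and steroid receptors, and the CCT ring folds actin and tubulin in a closed chamber. Many cytosolic chaperone genes are induced together by heat shock factor 1, a transcription factor that HSP70 and HSP90 hold inactive in resting cells, and in T cells this response accompanies activation, growth and fever-range heat.

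Total counts were 18127031 to 25683453 per library. The marker genes of T cells named for this check were abundant in every library, with Cd4 at 739 to 903 CPM and Cd3e at 241 to 329 CPM. On principal component 1 (44.8% of the variance) replicate 3 lay at -40.7 in control and -38.4 in Ogt-KD. Control replicates 1 and 2 lay at -6.92 and 7.95, and Ogt-KD replicates 1 and 2 at 35.7 and 42.4. The summed level of 8 macrophage or monocyte markers was 3421 and 3107 CPM in the replicate 3 libraries. In replicates 1 and 2 it was 1507 and 1544 CPM in control and 791 and 875 CPM in Ogt-KD. Values below are read counts scaled to CPM with edgeR's TMM factors, with the SD over n = 3 libraries. Differences are log2 fold changes, Ogt-KD relative to control, and carry a standard error (SE) from edgeR's quasi-likelihood test across all 16075 genes that passed the filter on low counts. In bulk RNA, fewer cells of a type and less RNA per cell cannot be told apart.

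Chaperone RNA was abundant and very uneven between members. By FPKM, the deposited unit that divides by gene length and so allows genes to be compared, the highest member was Hsp90ab1, which encodes the constitutive cytosolic HSP90, at 625 ± 108 FPKM in control and 443 ± 73.8 FPKM in Ogt-KD libraries (SD, n = 3 each). Hspa8, the constitutive HSP70 that also uncoats clathrin vesicles, followed at 465 ± 37.3 and 303 ± 42.7 FPKM. Cct2 of the CCT ring stood at 111 ± 4.58 and 109 ± 1.42 FPKM, Hsp90aa1, the inducible HSP90, at 122 ± 8.12 and 91.7 ± 9.38 FPKM, and Hspe1, the lid of the mitochondrial chaperonin, at 117 ± 18.4 and 89.9 ± 17.7 FPKM. In the control libraries the mean of Hspe1 lay within its SD of both Cct2 and Hsp90aa1. These 5 were the members with a mean above 100 FPKM over all libraries, and 17 members had a mean below 1 FPKM.

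Of the 84 members 72 passed the filter on low counts. The 12 that did not were Hspb1, Hspb2, Hspb3, Hspb7, Hspb8, Hspa12b, Dnajb3, Dnajb7, Dnajb8, Dnajc22, Dnajc5b and Dnajc5g. Hspb3, Hspb8 and Dnajc5g were at 0 counts throughout, and a count of 0 allows up to 3 per library. Hspb1, a small heat shock protein that is strongly induced by heat in many cells, had 1, 4 and 4 counts in control and 3, 2 and 3 counts in Ogt-KD libraries, too few to compare the groups.

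Both cytosolic HSP90 genes were lower in Ogt-KD libraries. Hsp90aa1 (chr12:110690605-110702728) stood at 523, 465 and 458 CPM in control and at 330, 360 and 400 CPM in Ogt-KD replicates 1, 2 and 3, with no overlap. Its log2 fold change was -0.41 (SE 0.11, 95% interval -0.67 to -0.14, edgeR adjusted p = 0.536). Hsp90ab1 (chr17:45567775-45573271) stood at 1984, 2139 and 1522 CPM and at 1405, 1530 and 1085 CPM, where Ogt-KD replicate 2 lay just above control replicate 3. In both groups replicate 3 was the lowest library for Hsp90ab1, while for Hsp90aa1 it was the lowest control and the highest Ogt-KD library. The log2 fold change of Hsp90ab1 was -0.49 (SE 0.19, adjusted p = 0.624).

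The HSP110 gene and the constitutive HSP70 gene were lower by larger amounts. Hsph1 (chr5:149614287-149636376) encodes HSP110, a nucleotide exchange factor that works with HSP70 to pull proteins out of aggregates. It stood at 207, 247 and 125 CPM in control and at 97.4, 107 and 50.1 CPM in Ogt-KD replicates 1, 2 and 3. The groups did not overlap, and replicate 3 was the lowest library in each of them. The log2 fold change was -1.19 (SE 0.34, 95% interval -1.99 to -0.38), or 43.9% of the control level, with an edgeR adjusted p of 0.556. It was 0.0143 when the replicate number was added to the fit as a block. The labels state no pairing of replicate numbers, so every value with the block rests on a pairing read from the data. Hspa8 (chr9:40800984-40810087) stood at 2024, 2157 and 1850 CPM against 1292, 1513 and 1135 CPM, again with no overlap. Its log2 fold change was -0.61 (SE 0.15, 95% interval -0.96 to -0.27, adjusted p = 0.512). Exons of Hspa8 share bases with the small nucleolar RNA genes Snord14c, Snord14d and Snord14e on the same strand, whose reads could enter its count.

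The 2 stress-inducible HSP70 genes behaved differently from the rest, and 1 library set their group means. Hspa1b had 20, 1199 and 55 counts in control and 32, 90 and 10 counts in Ogt-KD replicates 1, 2 and 3, and its neighbour Hspa1a had 22, 666 and 22 against 17, 101 and 5 counts. Replicate 2 was the highest library of each group for both genes, and control replicate 2 alone held 48.3 CPM of Hspa1b where the other 5 libraries held 0.400 to 4.56 CPM. The log2 fold changes of -3.03 (SE 1.47, adjusted p = 0.689) for Hspa1b and -2.27 (SE 1.49, adjusted p = 0.821) for Hspa1a turned to 0.12 and 0.85 without control replicate 2. Both genes encode nearly the same protein and share much of their sequence, so reads may have been split between them or dropped. Hsph1 had a log2 fold change of -0.96 without that library, and Hspa8 of -0.56.

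Other HSP70 relatives lay on both sides of 0. Hspa4, a second HSP110 type exchange factor, stood at 160, 164 and 160 CPM against 157, 170 and 154 CPM, and its log2 fold change was -0.01 (SE 0.08, 95% interval -0.20 to 0.18), a sign that turned when single libraries were left out. Its relative Hspa4l had -0.10 (SE 0.11, 95% interval -0.36 to 0.15). Of the 12 tested members of the HSP70 and HSP110 class 9 lay below 0 and 3 above, with a median of -0.11.

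**Figure D1:**
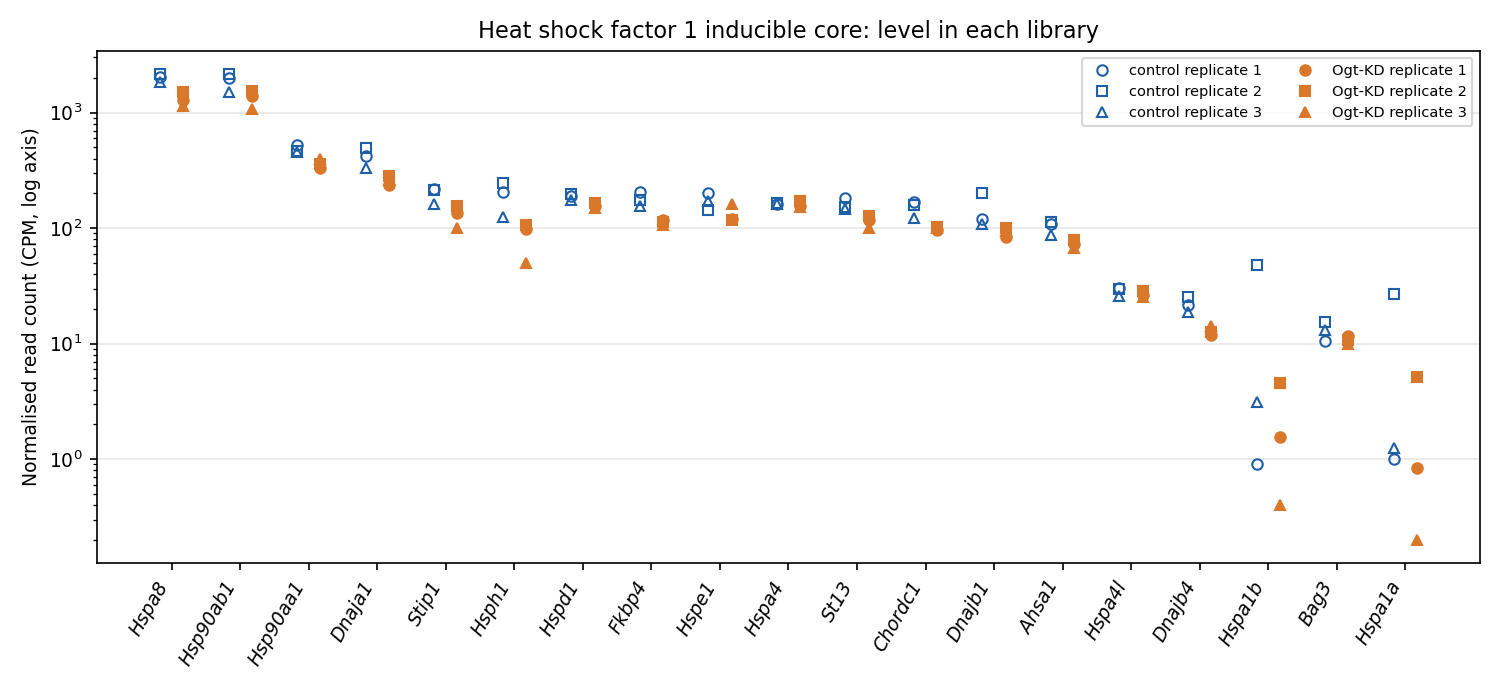
Normalised read count (CPM, log axis) of the 19 tested genes of the heat shock factor 1 inducible core, from highest to lowest control mean. Open blue symbols are the 3 control libraries and filled orange symbols the 3 Ogt-KD libraries, with 1 symbol shape per replicate number. All 3 Ogt-KD values lie below all 3 control values for 12 of the genes, and for 5.88% of all genes tested. Hspa1a and Hspa1b are high in control replicate 2 alone.

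Of the 7 co-chaperones listed singly, Fkbp4, Stip1, Chordc1, Ahsa1 and St13 had Ogt-KD values below all controls, as had 5.88% of all genes tested. None of the 7 passed in edgeR without the block, where 0% of all tested genes were called lower. Other HSP90 partners differed among themselves. Ppid (log2 fold change -0.01, SE 0.07) and Ppp5c (-0.03, SE 0.10) stood near their control level. Cdc37 lay slightly lower (-0.10, SE 0.08), with every Ogt-KD value below all controls. Ptges3 lay lower still (-0.28, SE 0.13), though its groups overlapped. Fkbp4 (chr6:128429735-128438677) encodes the immunophilin FKBP52, which ties HSP90 and steroid receptors to transport along microtubules. It stood at 205, 176 and 155 CPM in control and at 118, 112 and 106 CPM in Ogt-KD replicates 1, 2 and 3. No Ogt-KD library reached a control library, and the Ogt-KD values differed little among themselves (112 ± 5.72 CPM, SD, n = 3). The log2 fold change was -0.67 (SE 0.12, 95% interval -0.95 to -0.39), or 62.8% of the control level, with an edgeR adjusted p of 0.480, and of 0.0443 with the replicate block.

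Stip1, the adaptor HOP that passes clients from HSP70 to HSP90, stood at 218, 214 and 161 CPM in control and at 135, 156 and 99.8 CPM in Ogt-KD (log2 fold change -0.61, SE 0.19, adjusted p = 0.569, 0.0517 with the block). Chordc1, which encodes the HSP90 binding protein morgana, stood at 168, 159 and 123 CPM against 96.8, 103 and 99.3 CPM (-0.59, SE 0.13, adjusted p = 0.483). Ahsa1, the activator of the HSP90 ATPase, stood at 109, 112 and 87.1 CPM against 73.0, 79.0 and 67.7 CPM (-0.49, SE 0.12, adjusted p = 0.517). In these genes control replicate 3 was the lowest control, and it still lay above every Ogt-KD library. St13, which encodes the HSP70 interacting protein HIP, stood at 181, 151 and 146 CPM against 117, 126 and 100 CPM (-0.47, SE 0.12, adjusted p = 0.526), likewise without overlap.

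Bag3 and Hsf1 overlapped between the groups. Bag3, the exchange factor that leads HSP70 clients to autophagy, stood at 10.5, 15.5 and 13.2 CPM in control and at 11.6, 10.8 and 9.87 CPM in Ogt-KD (log2 fold change -0.28, SE 0.18, 95% interval -0.70 to 0.14). Hsf1, the heat shock transcription factor itself, stood at 78.5, 78.2 and 67.4 CPM against 75.6, 71.7 and 57.9 CPM (-0.13, SE 0.12, 95% interval -0.42 to 0.16). Its RNA level says nothing of its activity, which is set on the protein.

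Among the J proteins Dnaja1, Dnajb4 and Dnajb1 of the inducible core had lower levels in Ogt-KD libraries, and the DNAJC members lay evenly about 0. Dnaja1 (chr4:40722150-40737149), the main J partner of cytosolic HSP70, stood at 424, 498 and 334 CPM in control and at 238, 285 and 260 CPM in Ogt-KD (log2 fold change -0.68, SE 0.16, 95% interval -1.06 to -0.31, adjusted p = 0.512). Dnajb4 (chr3:152178511-152210302), a close relative of DNAJB1, stood at 21.7, 25.1 and 18.8 CPM against 11.9, 12.6 and 14.2 CPM (-0.76, SE 0.15, 95% interval -1.11 to -0.41, adjusted p = 0.483). Neither gene had overlapping groups. Dnajb1, the HSP40 that joins HSP110 in dissolving aggregates, stood at 119, 201 and 108 CPM against 84.2, 100 and 95.2 CPM (-0.61, SE 0.23, adjusted p = 0.624), and without control replicate 2, its highest library, the log2 fold change was -0.28. Exons of Dnaja1 share 608 bases with Smu1 on the opposite strand, and Smu1 had a log2 fold change of -0.03 (SE 0.18).

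A pair of J protein genes outside the inducible core were lower too. Dnajb2, which carries ubiquitin binding motifs and sends clients to the proteasome, stood at 36.4, 32.1 and 25.97 CPM in control and at 22.7, 21.7 and 20.1 CPM in Ogt-KD (log2 fold change -0.55, SE 0.14, adjusted p = 0.526). Dnaja4 stood at 19.3, 22.0 and 17.9 CPM against 13.3, 14.4 and 16.6 CPM (-0.41, SE 0.14, adjusted p = 0.590). For both genes the groups did not overlap. Dnaja4 shares 1581 exon bases with Wdr61 on the opposite strand, which had a log2 fold change of -0.01 (SE 0.17). In the other direction Dnajb14, a J protein of the endoplasmic reticulum membrane, stood at 22.2, 21.6 and 21.2 CPM against 31.0, 29.4 and 23.1 CPM (0.36, SE 0.13, adjusted p = 0.624). Dnaja3, the mitochondrial member of its class, had -0.08 (SE 0.10).

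Over the 24 tested DNAJC genes the median log2 fold change was -0.004, with 12 below 0 and 12 above, between -0.22 and 0.17. Their summed level was 1470, 1461 and 1454 CPM in control and 1396, 1396 and 1518 CPM in Ogt-KD libraries, which overlapped. The smallest p values in the class belonged to Dnajc17 (-0.22, SE 0.12), a splicing associated J protein, Dnajc4 (0.17, SE 0.11) and Dnajc21 (-0.15, SE 0.10), a ribosome biogenesis factor. The summed level of the 4 DNAJA genes, in contrast, was 657, 697 and 567 CPM against 425, 476 and 503 CPM, with no overlap. Dnaja1 supplied most of that sum, and without it the other 3 summed to 233, 199 and 233 CPM against 186, 191 and 244 CPM, which overlapped.

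All 9 chaperonin members lay below 0 by small amounts, and 0 passed in edgeR, with or without the block, or in DESeq2. Hspd1 and Cct3 were the 2 with Ogt-KD values below all controls, which 5.88% of all genes tested had. Hspd1 (chr1:55077835-55088243), which encodes the HSP60 barrel of mitochondria, stood at 191, 198 and 175 CPM in control and at 156, 164 and 149 CPM in Ogt-KD libraries, with no overlap (log2 fold change -0.26, SE 0.09, adjusted p = 0.586). Hspe1, its HSP10 lid, stood at 202, 145 and 173 CPM against 121, 116 and 163 CPM and did overlap (-0.38, SE 0.17, adjusted p = 0.672). The 2 genes lie head to head and share 112 exon bases, and the table names 5 processed pseudogenes of Hspd1 and 6 of Hspe1, so reads may have been split among these copies.

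In the CCT ring all 7 members lay below 0, with a median log2 fold change of -0.12. Among them Cct3 alone had groups without overlap, at 201, 187 and 168 CPM against 151, 160 and 143 CPM (-0.29, SE 0.10, adjusted p = 0.589). Cct2 was level at 288, 295 and 274 CPM against 280, 286 and 277 CPM (-0.02, SE 0.08, 95% interval -0.22 to 0.17). The eighth subunit gene, Cct6a, stood at 147, 141 and 145 CPM against 116, 125 and 137 CPM (-0.19, SE 0.09, adjusted p = 0.681). It did not overlap either. The Ogt-KD level of the 7 members was 81.6% of control for Cct3 and 98.3% for Cct2, with the others between.

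Members found through the Hspb prefix are a mixed class. Hspb6, a small heat shock protein of muscle, stood at 2.47, 3.50 and 3.15 CPM in control and at 4.36, 4.51 and 3.96 CPM in Ogt-KD (log2 fold change 0.49, SE 0.22, adjusted p = 0.669). Hspbp1, an HSP70 nucleotide exchange factor with no small heat shock domain, stood at 45.4, 42.6 and 41.9 CPM against 40.6, 40.0 and 35.4 CPM (-0.16, SE 0.09, adjusted p = 0.769). Hspbap1 stood at 29.6, 45.8 and 46.8 CPM against 27.8, 32.7 and 36.2 CPM (-0.34, SE 0.19, adjusted p = 0.763), with groups that overlapped.

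**Figure D2:**
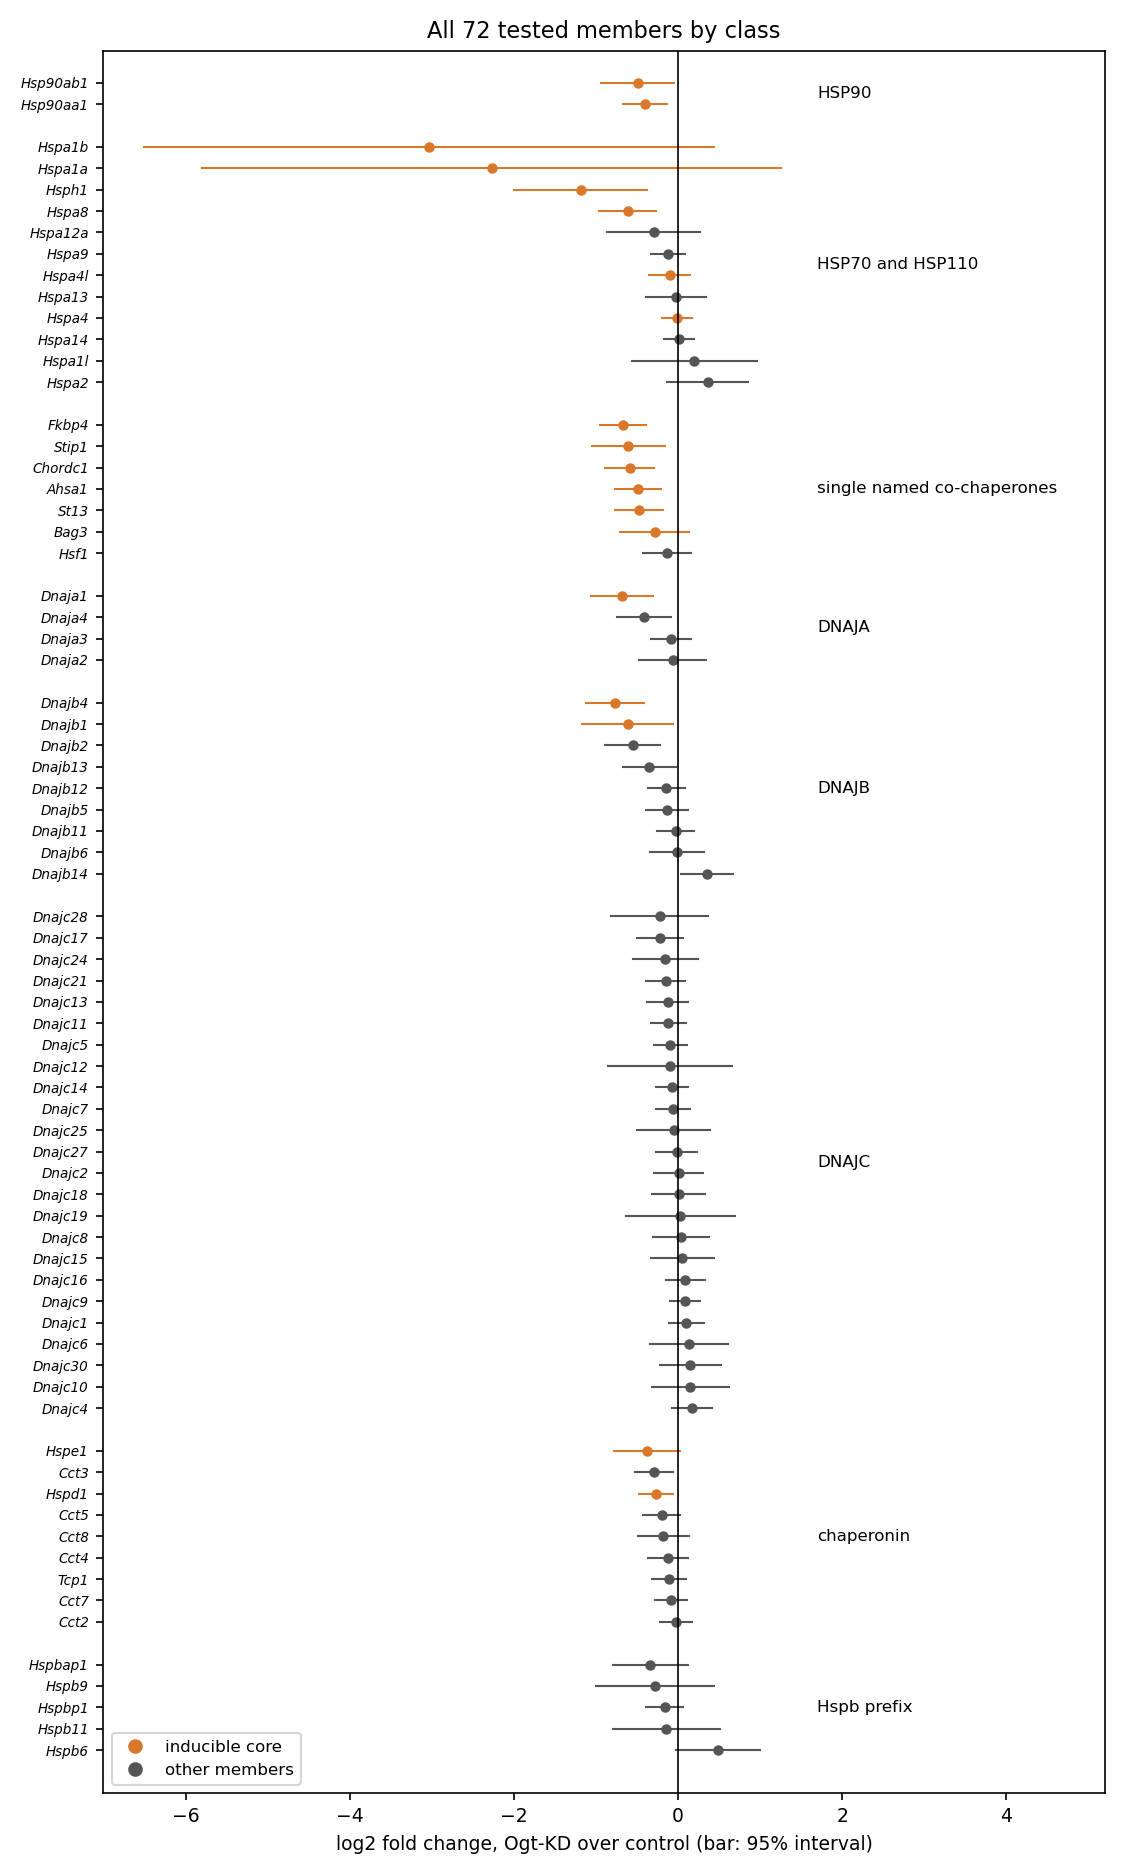
Log2 fold change, Ogt-KD relative to control, (points) with its 95% interval (bars) for the 72 tested members, by class; orange marks the inducible core. Points of the core lie below 0, from -3.03 to -0.01, and those of the DNAJC class lie on both sides of 0, from -0.22 to 0.17.

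Counted over the 72 tested members, no gene passed in edgeR at an adjusted p under 0.05, where 0% of all tested genes were called lower and 0.00622% higher. At an unadjusted p under 0.05 edgeR had 17 members lower and 1, Dnajb14, higher, against a background of 2.48% of all tested genes lower and 5.04% higher. All 3 Ogt-KD values lay below all 3 control values in 18 members, or 25.0%, against 5.88% of the genes tested. All 3 lay above in 4 members, Dnajb14, Dnajc4, Hspa2 and Hspb6, where the background was 7.43%. The median log2 fold change was -0.12 over the tested members and -0.005 over all genes tested, and 55 members lay below 0 and 17 above.

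The labels state no pairing of replicate numbers. Once replicate number entered edgeR's model as a block, Hsph1 and Fkbp4 fell, 2 members, where 0.0933% of genes were called lower and 0.199% higher. This pair rests on the libraries kept: the same fit called 6 members lower without replicate 1 of both groups (background 0.78% lower and 1.03% higher), 0 without replicate 2 (0% and 0.0124%) and 7 without replicate 3 (0.68% and 1.13%). DESeq2 called 6 members lower, Fkbp4, Dnajb4, Hspa8, Hsph1, Dnaja1 and Chordc1 (background 0.172% lower and 0.509% higher), and limma-voom called 0 (0% and 0.00622%). Without a block but also without the replicate 3 library of either group, edgeR called Hsph1 and Chordc1 lower (background 0.135% lower and 0.0797% higher). The authors' deposited table lists an adjusted p under 0.05 for the 6 genes that DESeq2 called, with its values from 0.00412 for Fkbp4 to 0.0369 for Chordc1, and its background was 0.106% lower and 0.311% higher. These fits use the same libraries and are no independent evidence for each other.

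Genes known to be induced by heat shock factor 1 were listed as a core of 20 members: Hspa1a, Hspa1b, Hsph1, Dnajb1, Dnajb4, Dnaja1, Hsp90aa1, Hsp90ab1, Hspa8, Hspa4, Hspa4l, Hspd1, Hspe1, Hspb1, Bag3, Fkbp4, Stip1, Chordc1, Ahsa1 and St13. The list was drawn up with some of these results known. Of its 19 tested genes 19 lay below 0, with a median log2 fold change of -0.59, and 12 had all Ogt-KD values below the controls (63.2%, against 5.88% of all genes tested). Hspa1a and Hspa1b lay above 0 without control replicate 2, and the sign of Hspa4 turned when single libraries were left out. The 53 tested members outside the core had a median of -0.08, with 6 below all controls (11.3%, against 5.88%) and 4 above (background 7.43%). Summed over the 20 genes the core made up 6779, 7171 and 5640 CPM in the controls, by replicate, and 4473, 4984 and 4014 CPM in Ogt-KD, or 68.8% of the control mean. The 64 other members summed to 4100, 3922 and 3987 CPM against 3666, 3694 and 3963 CPM. Hspa8 and Hsp90ab1 supply most of the core's sum, so the sum follows them more than the weakly expressed genes.

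The core also differed between libraries of the same group. Relative to each gene's mean log2 CPM in the controls, the median over the 19 core genes was 0.09, 0.13 and -0.21 in the controls, by replicate, and -0.54, -0.37 and -0.61 in Ogt-KD. Control replicate 3 lay below the control mean for 17 of the 19 genes, Ogt-KD replicates 1 and 3 for 19 and Ogt-KD replicate 2 for 17. The same medians over the other 53 tested members were 0.04, -0.02 and 0.002 in control and -0.12, -0.11 and -0.01 in Ogt-KD libraries.

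**Figure D3:**
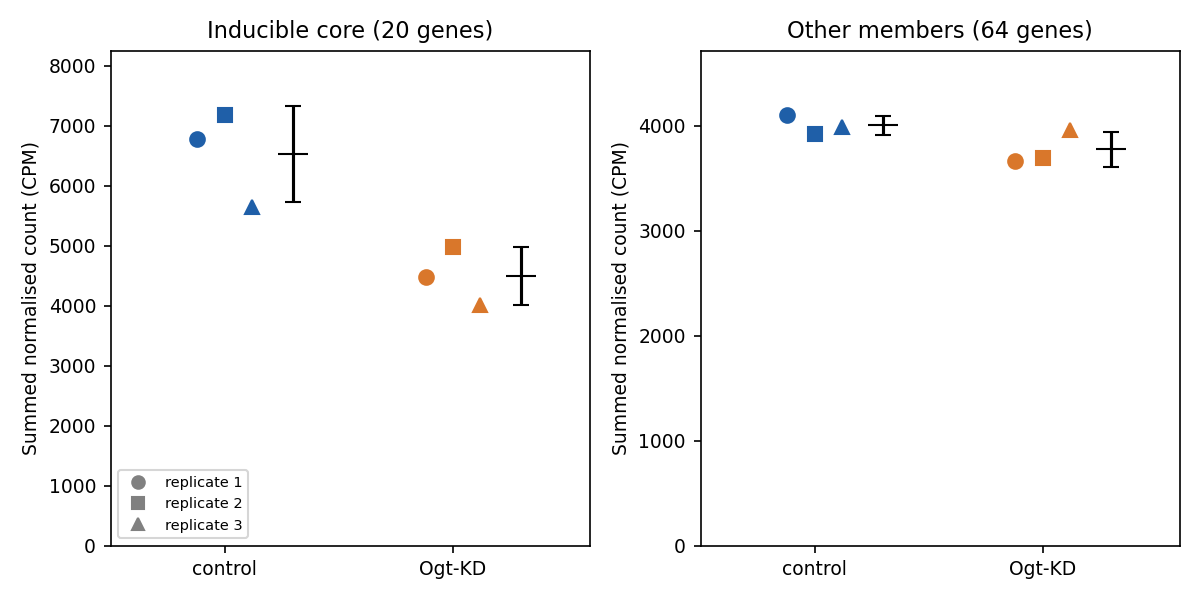
Summed normalised count (CPM) of the 20 core genes (left) and the 64 other members (right) in each library, with 1 symbol shape per replicate number and the group mean ± SD (n = 3) beside the points. The core sums of the Ogt-KD libraries, 4014 to 4984 CPM, lie below those of the controls, 5640 to 7171 CPM, and the sums of the other members overlap.

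Heat shock factor 1 binds inverted repeats of the letters GAA and TTC, called heat shock elements, so the windows around the members' start sites were searched for them. RefSeq windows on GRCm38.p6, from 250 bases before the transcript start to 50 from it, matched 67 of the 84 members. Cct4, Dnajc2, Dnajc5, Dnajc5b, Dnajc11, Dnajc12, Dnajc18, Dnajc22, Dnajc30, Hsf1, Hsp90aa1, Hsp90ab1, Hspa8, Hspa9, Hspa13, Hspb2 and St13 had no entry. The paired element was GAANNTTC or TTCNNGAA, each its own reverse complement, and the triple element a paired one followed, after NN, by a further alternating unit, searched on both strands. Stretches are shown for some core genes that held a paired element and had a log2 fold change below 0, to let the elements be seen. This choice does not tie an element to a lower value. The fold change of Hspa1b rests on control replicate 2, and the groups of Hspe1 overlapped. Lines run 5′ to 3′ on the gene's strand, and capitals mark paired elements (overlapping ones run together). Positions count from 1 at the transcript's first base, with -1 before it.
Hsph1 (chr5:149636288-149636375, minus strand, -60 to 28): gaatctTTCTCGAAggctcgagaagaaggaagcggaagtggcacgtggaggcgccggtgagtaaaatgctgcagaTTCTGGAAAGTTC
Chordc1 (chr9:18292227-18292285, plus strand, -40 to 19): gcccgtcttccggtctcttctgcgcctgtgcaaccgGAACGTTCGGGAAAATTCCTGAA
Hspe1 (chr1:55088038-55088107, plus strand, -110 to -41): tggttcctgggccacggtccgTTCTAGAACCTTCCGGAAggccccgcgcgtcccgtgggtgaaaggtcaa
Dnaja1 (chr4:40722318-40722387, plus strand, -150 to -81): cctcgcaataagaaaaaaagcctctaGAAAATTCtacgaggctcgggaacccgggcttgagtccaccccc
Fkbp4 (chr6:128438767-128438836, minus strand, -180 to -111): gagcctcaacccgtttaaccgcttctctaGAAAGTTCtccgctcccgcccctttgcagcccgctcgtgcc
Dnajb4 (chr3:152193826-152193895, minus strand, -50 to 20): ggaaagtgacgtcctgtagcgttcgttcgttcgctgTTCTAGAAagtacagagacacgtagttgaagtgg
Hspa1b (chr17:34959299-34959368, minus strand, -130 to -61): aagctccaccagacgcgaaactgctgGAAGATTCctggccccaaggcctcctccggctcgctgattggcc

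The windows differed in how many elements they held. Chordc1 had 5 paired elements, 4 of them in an unbroken run over the transcript start, and Hsph1 had 3, while Dnaja1, Fkbp4, Dnajb4 and Hspa1b had 1 each. The run in the Hspe1 window is also in the window of Hspd1 on the other strand, since both hold the same triple elements at chr1:55088059-55088071 and chr1:55088064-55088076. Among core genes with a window, 11 of 16 held a paired element (68.8%) and 4 a triple one (25.0%). For the other members these were 10 of 51 (19.6%) and 1 (1.96%). Over all 27025 genes with a window the shares were 17% and 0.662%. The core was listed as genes induced by heat shock factor 1, so its shares are not independent of that choice. Stip1, Dnajb1, Ahsa1, Hspa4 and Hspa4l held no such letters in their windows, which covers neither more distant sites nor elements with a mismatch.

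Tested members with a paired element had a lower median log2 fold change than those without, as a description of genes already chosen with this contrast known. The median was -0.38 over 17 members with an element, of which 7 had groups without overlap, and -0.10 over 41 without, of which 8 did. Core genes carry this difference. In the core the median was -0.68 over 10 genes with an element and -0.49 over 5 without. Of these, 6 and 3 had groups without overlap. Outside the core the median was -0.02 over 7 members with one, from Dnaja4 (-0.41) to Hspb6 (0.49), and -0.08 over 36 without. There 1 and 5 had Ogt-KD values below all controls. Beyond the set the element went with no such shift: the median was 0.002 over 1471 tested genes with it and -0.005 over 9021 without. All 3 Ogt-KD values lay below the controls in 6.19% and 6.33% of those genes. Dnajb6 held a triple element and had a log2 fold change of -0.01, so an element in the window did not always go with a lower value.

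**Figure D4:**
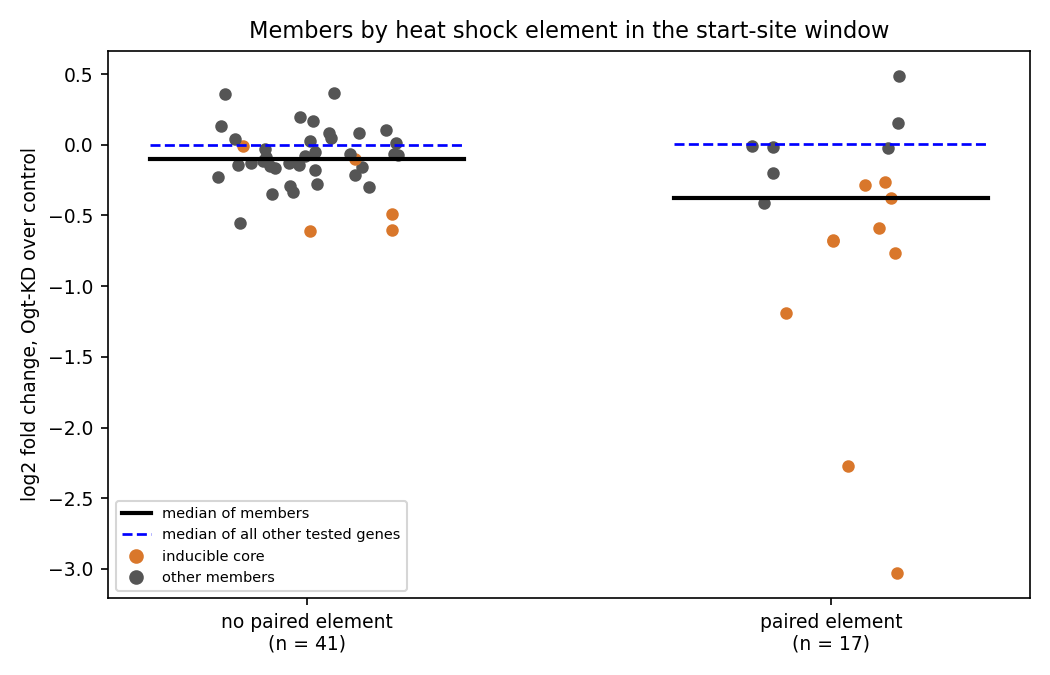
Log2 fold change, Ogt-KD relative to control, for the 58 tested members with a start-site window, split by whether it holds a paired heat shock element (points spread sideways at random; orange marks the core). Black lines are the medians of the members, -0.10 without and -0.38 with an element, and dashed blue lines those of all other tested genes, -0.005 and 0.002.

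The wider folding pathway was followed in 41 further genes, among them the transcription factors Hsf2 and Hsf4, HSP90 partners such as Ptges3, Cdc37 and Ppid, BAG exchange factors, prefoldin subunits and ubiquilins. Of the 39 tested, 30 lay below 0 and 9 above, at a median of -0.10 on the log2 scale, and 0 passed in edgeR with or without the block. At an unadjusted p under 0.05 edgeR had 4 of the 39 lower and 0 higher, against 2.48% and 5.04% of all genes tested. All Ogt-KD values lay below the controls in 8 (20.5%, against 5.88% of all genes tested). Ubqln1, which ferries ubiquitinated proteins to the proteasome, stood at 142, 133 and 128 CPM in control and at 113, 116 and 103 CPM in Ogt-KD libraries (-0.28, SE 0.09, adjusted p = 0.569). Cacybp had -0.48 (SE 0.19) and Bag2, an inhibitor of the ubiquitin ligase CHIP, -0.78 (SE 0.32) at 1.03 to 3.04 CPM. On the higher side the smallest p values were those of Hsf4 (0.43, SE 0.28), Unc45a (0.06, SE 0.11) and Bag6 (0.05, SE 0.12), and the last 2 turned sign when single libraries were left out.

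The 4 endoplasmic reticulum chaperone genes kept out of the set also lay below 0. Hsp90b1, the HSP90 of the endoplasmic reticulum, stood at 327, 320 and 333 CPM in control and at 264, 257 and 250.1 CPM in Ogt-KD (log2 fold change -0.35, SE 0.08, adjusted p = 0.512). Hspa5, which encodes BiP, stood at 609, 598 and 594 CPM against 468, 550.4 and 480 CPM (-0.27, SE 0.10, adjusted p = 0.628). Both had Ogt-KD values below all controls, as had 5.88% of all genes tested. Dnajc3 had -0.20 (SE 0.11) and Dnajb9 -0.29 (SE 0.18), with overlap.

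Some genes outside the set were also lower in Ogt-KD libraries, and their part in the result was not tested. A list of 24 genes was headed immediate early, and many of them, though not all, rise within minutes of stimulation or handling of tissue. Of the 24, 15 lay below 0, with a median log2 fold change of -0.12, and 6 had groups without overlap (25.0%, against 5.88% of all genes). Fos stood at 184, 343 and 190 CPM in control and at 127, 168 and 91.6 CPM in Ogt-KD libraries, and Fosb at 168, 347 and 140 CPM against 117, 124 and 33.3 CPM. In both genes control replicate 2 was the highest library. Of the core it was also highest for Hspa1a, Hspa1b, Hsph1, Dnaja1, Dnajb1, Dnajb4, Hspa8, Hsp90ab1, Ahsa1, Hspd1 and Bag3. Control replicate 1 was highest for Fkbp4, Stip1, Chordc1, St13, Hsp90aa1, Hspe1 and Hspa4l, and Ogt-KD replicate 2 for Hspa4. Of the 24, DESeq2 called Klf2 (log2 fold change -0.49, adjusted p = 0.0115) and Tnfaip3 (-0.81, adjusted p = 0.0444) lower, where the background was 0.172% lower. With the block, edgeR called Tnfaip3 lower (adjusted p = 0.0481), where the background was 0.0933% lower. Egr1 and Nr4a1, in contrast, had log2 fold changes of 0.21 (SE 0.25) and 0.20 (SE 0.30).

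Markers of other cells and of dividing cells were read as well. Of the summed levels only those of dividing cells did not overlap between the groups. All 8 markers of dividing cells lay above 0, with summed levels of 321 to 506 CPM in control and 628 to 848 CPM in Ogt-KD libraries. All 8 dendritic cell markers did, with 375 to 772 and 647 to 1760 CPM, and so did all 8 erythroid markers, with 17.8 to 51.3 and 42.3 to 210.3 CPM. Of 8 macrophage or monocyte markers 2 lay above 0 and 6 below, with 1507 to 3421 and 791 to 3107 CPM, and of 8 T cell markers 3 lay above and 5 below, with 3880 to 4317 and 3665 to 3941 CPM. The 6 B cell markers summed to 91.5 to 130.1 and 121 to 163 CPM, the 7 neutrophil markers to 88.8 to 190 and 105 to 249 CPM, and the 5 CD8 T or NK cell markers to 29.2 to 30.4 and 28.1 to 35.9 CPM. No marker was at 0 in every library, and the NK cell marker Ncr1 stayed below 1 CPM. Whether these cells account for any part of the chaperone values was not tested.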

How the data were processed

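The table gives 3 control and 3 Ogt-KD libraries. Deposited read counts per Ensembl gene entered all tests. Deposited FPKM set levels between genes. The authors' deposited log2 fold change and p-value columns were quoted as theirs, and their mean signal per group, a deposited column, was not used. Deposited gene length and coordinates, an other unit (bases), gave positions. Per the submitters' processing notes, mm9 was the build, TopHat2 2.0.9 and Bowtie2 2.0.6 the tools, but 80 of 84 members have the coordinates of GENCODE M21 (GRCm38), the build used here. The counter and its strand setting: not given in the sources used here.

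Tests used edgeR 4.0.16 (quasi-likelihood, robust, TMM, filterByExpr) in R 4.3.3 over 16075 genes, with Benjamini-Hochberg adjustment at 0.05. The code was also run on simulated counts with the same dispersion for all genes and no shift shared between libraries. That run does not show how the test behaves on these libraries. DESeq2 1.42.0 and limma 3.58.1 (voom), DESeq2 size factors, no filter, left-out libraries and a replicate block were alternatives. The labels state no pairing. Deviations of same-numbered libraries correlated at 0.109, 0.346 and 0.523 across genes, and those of other pairs at -0.418 to 0.267. The replicate block took the numbers as pairs, a pairing read from the data. Ogt-KD replicate 1 correlated more with control replicate 2 (0.267) than with control replicate 1 (0.109). The pairing is therefore uncertain. No pair of libraries agreed within sampling noise (chi-squared per degree of freedom 10.8 to 96.2). The 95% intervals of fold changes include the spread between libraries. The limit of 3 counts at 0 covers counting error only, since reads carry no molecular identifiers.

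Members and lists were chosen with earlier results of these data known. Named genes were the inducible core, Hsf1, the 4 genes left out, the 3 of smallest p per class, the 4 of highest FPKM and, of the wider pathway, the 3 of smallest p per direction. Others named are given for counts or overlaps and were chosen after their values were seen.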

Additional observations from a re-analysis of the deposited data

How the results depend on the processing

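The lower median of the core kept its sign in every alternative run (left-out libraries, other size factors, DESeq2, limma-voom, no filter, the block), and leaving out 1 library moved it between -0.69 and -0.43, the latter without control replicate 2. The median of the tested members moved between -0.17, without Ogt-KD replicate 3, and -0.095. Counts of calls depended on the fit. Over all genes edgeR called 1, DESeq2 111, edgeR without a filter 4, and edgeR with both replicate 3 libraries left out 35. Leaving out 1 library gave 1 to 2. With the replicate block edgeR called 47, and 295, 2 and 295 without replicates 1, 2 and 3 of both groups, alternatives chosen after seeing the data. Members called were 0 in the main comparison and in all 6 fits without 1 library, 6 with DESeq2, 2 with the block, 2 with both replicate 3 libraries left out, and 6, 0 and 7 with the block without replicates 1, 2 and 3. The cause was not tested. With all 6 libraries the block changed the calls of Hsph1 and Fkbp4 among the members, and of Tnfaip3 in the immediate early list. No other call changed among the members, the wider pathway and the immediate early list. Members below all controls numbered 35 (background 19.3%) without Ogt-KD replicate 3 and 42 (background 25%) without both replicate 3 libraries, where fewer values must be ordered.

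Signs turned for genes near 0 or carried by 1 library. Over the fits without 1 library the log2 fold change ranged from -4.28 to 0.85 for Hspa1a and from -4.19 to 0.12 for Hspa1b, the highest without control replicate 2. It ranged from -0.075 to 0.0019 for Cct2, from -0.057 to 0.015 for Hspa4, from -0.015 to 0.16 for Bag6 and from -0.0047 to 0.16 for Unc45a. Hspa4 had 0.0090 with no replicate 3 library, and 0.0081 with the block there. With the block and no replicate 1, Bag6 had -0.022 and Unc45a -0.044. Counts of Hspb1 and the other 11 untested members were too low to compare; whether they are expressed was not tested.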

Other observations

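Dnajb13 and Hspa2, known mainly from testis or cilia, had reads in these T cell libraries. Dnajc22, given beside them for its pattern alone, had reads in some of the libraries. These genes were chosen after their values were seen. Dnajb13, a J protein of the sperm tail and of motile cilia, stood at 26.6, 28.6 and 21.7 CPM in control and at 19.5, 19.1 and 21.8 CPM in Ogt-KD libraries. Its exons share 305 bases with Ucp2 on the opposite strand, which stood at 687 and 727 CPM on average, and without a stated strand setting reads of the 2 genes cannot be told apart. Hspa2, the testis HSP70, stood at 2.42, 2.58 and 2.65 CPM in control and at 2.84, 3.40 and 3.60 CPM in Ogt-KD libraries, with no overlap between the groups. Dnajc22 had 4, 8 and 0 counts in control and 20, 30 and 0 counts in Ogt-KD libraries, so both replicate 3 libraries were at 0 and the others were not.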
